A study of Mus musculus with 10 samples.

Results

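The respiratory chain genes were chosen by symbol. They comprised every probe set whose platform gene symbol begins with Nduf, Uqcr or Atp5, is Sdha, Sdhb, Sdhc or Sdhd, or begins with Cox4i, Cox5, Cox6, Cox7 or Cox8 followed by a letter or digit. The rule took 187 of the 45101 probe sets on the array. Of these, 179 listed 1 gene, 90 genes in all, and 8 listed several. A further 2 probe sets list a member symbol after another gene, Yjefn3, and were not taken. A filter on low values, described with the processing, kept 156 of the 179 and left out 23. In all, 87 of the 90 genes had a kept probe set, among 11357 genes tested. Cox4i2, a lung-type isoform of complex IV subunit 4, Cox7b2 and the single-gene probe set of Ndufb4 stayed under the filter. The rule used names only, not measured values.

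Expression was measured on Affymetrix arrays in osteoblasts, the bone-forming cells, of mice 2 to 3 days old. The background strain is given as C5BL6 and the sex as undetermined. There were 3 samples in which β-catenin was constitutively expressed specifically in osteoblasts (active β-catenin), 3 in which FoxO1 was deleted specifically in osteoblasts (FoxO1 deleted) and 4 wild-type samples. No label names the promoter or Cre that restricts either alteration to osteoblasts, or an allele or agent common to all groups. Nothing in the labels ties a sample to a single animal, to pooled animals or to a cultured line. The p-values therefore cover the spread between these samples alone, and that spread may be technical.

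β-catenin is the transcriptional effector of canonical Wnt signalling. FoxO1 belongs to the forkhead transcription factors, which insulin signalling restrains. The respiratory chain lies in the inner mitochondrial membrane. Complexes I and II pass electrons from NADH and from succinate to ubiquinone, complex III passes them to cytochrome c, and complex IV passes them to oxygen. Complexes I, III and IV pump protons, and complex V, the ATP synthase, uses the returning protons to make ATP. Most subunits are encoded in the nucleus, and the rule holds nuclear genes only. Several complex IV subunits have a widely expressed form and a form of skeletal and heart muscle. Osteoblasts draw on both glycolysis and respiration.

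Some facts of the arrays bear on the values. Osteoblast markers were high throughout, and 8 of 12 listed markers were in the fit. Col1a1, the main chain of bone collagen, lay between 15.04 and 15.35 on the log2 scale, and Sp7, an osteoblast transcription factor, between 10.92 and 11.82. Bglap, Bglap2, Runx2 and Spp1 had no probe set in the fit. All 18 skeletal muscle markers were also in the fit, with Acta1 between 14.26 and 15.16. Of 9 listed markers of osteoclasts, the bone-resorbing cells, 8 were in the fit. Among them Ctsk lay between 14.17 and 14.70 and Oscar between 7.48 and 9.45. Of 10 listed macrophage and leukocyte markers 9 were, with Csf1r between 13.04 and 13.58 and Cd14 between 7.49 and 8.71. The Foxo1 probe set with the highest mean stood at 9.80, 10.13 and 9.67 in FoxO1 deleted samples, against 10.09, 10.08, 9.93 and 10.05 in wild type. That of Ctnnb1, which encodes β-catenin, stood at 14.49, 14.44 and 14.42 with active β-catenin, against 14.35, 14.56, 14.53 and 14.47 in wild type. The other 2 kept probe sets of Ctnnb1 differed by -0.28 and -0.34 with active β-catenin, and those of Foxo1 by 0.05 and 0.10 with FoxO1 deleted. The altered exons of either gene are not described in the labels, so these probe sets do not check the labels. Wild type 1 and 2 correlated at 0.990, and wild type 3 and 4 at 0.989, over the genes tested. Wild-type arrays from different pairs correlated at 0.971 to 0.973. The labels do not relate the arrays of a pair to each other.

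The first question was whether active β-catenin or loss of FoxO1 altered expression of the chain. Across complexes I to V, no gene passed the test in either genotype, and most differences were small. With active β-catenin, 0 of 87 genes passed limma's test at an adjusted p under 0.05, where 0.784% of all genes tested did. The smallest adjusted p in limma was 0.130. At an unadjusted p under 0.05 there were 3 of the 87 genes, or 3.45%, where 12.1% of all genes had one. With FoxO1 deleted, 0 of 87 genes passed, where 0.0264% of all genes did, and the smallest adjusted p in limma was 0.486. Again 3 genes, or 3.45%, had an unadjusted p under 0.05, where 7.83% of all genes had one.

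The sizes behind these counts were narrow. The median log2 difference over the 87 genes was -0.01 for active β-catenin minus wild type, where the median over all genes tested was 0.01. It was -0.04 for FoxO1 deleted minus wild type, where the median over all genes tested was 0.00. In each comparison 82 of 87 genes differed by less than 0.25. The 95% interval of the difference lay within 0.5 on either side of 0 for 78 genes with active β-catenin and for 73 with FoxO1 deleted. The median standard error of a difference was 0.118 in both comparisons.

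Signs differed between the genotypes but depended on single arrays and on their weights. With active β-catenin 39 genes had a positive and 48 a negative difference from wild type, where 48.7% of all genes were negative. With FoxO1 deleted 17 were positive and 70 negative, where 50% of all genes were negative. Quantile normalization kept this split, at 16 positive and 71 negative. Centring each array on its median turned it into 43 positive and 42 negative, with a chain median of 0.00. That scaling also moved the median over all genes tested to 0.04, so the 50% above is not its background. Without FoxO1 deleted 2 the split was 51 positive and 36 negative. Array weights gave 62 positive and 25 negative. No direction is therefore read from the sign of the median.

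**Figure D1:**
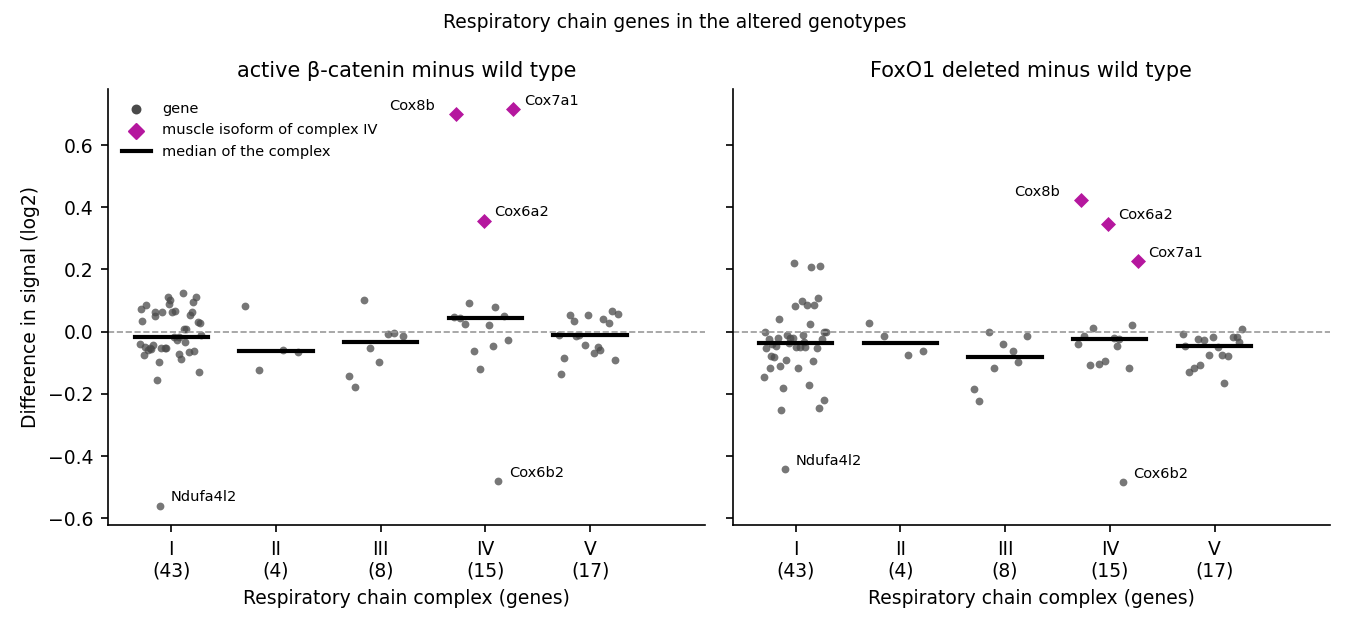
Log2 difference from wild type of each of the 87 respiratory chain genes by complex, for active β-catenin (left) and FoxO1 deleted (right); each point is 1 gene, diamonds are muscle isoforms and bars are medians of the complex. Most genes lie within 0.25 of 0, and the genes farthest out are Cox7a1, Cox8b and Cox6a2 on the positive side and Cox6b2 and Ndufa4l2 on the negative side.

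Complex I, the NADH dehydrogenase, had 43 genes in the fit. Its 6 core subunits had differences between -0.07 and 0.10 with active β-catenin and between -0.09 and 0.08 with FoxO1 deleted. Ndufs1, the large iron-sulfur subunit, averaged 11.22 ± 0.22 with active β-catenin, 11.14 ± 0.11 with FoxO1 deleted and 11.14 ± 0.20 in wild type (SD, n = 3, 3 and 4). Ndufv1, which binds NADH, averaged 12.03 ± 0.13 with active β-catenin, 12.09 ± 0.18 with FoxO1 deleted and 12.06 ± 0.07 in wild type. Ndufs7, an iron-sulfur subunit near the ubiquinone site, averaged 11.68 ± 0.16, 11.66 ± 0.16 and 11.58 ± 0.10 in the same order of genotypes. For these 3 subunits the genotype means differed by less than the SD of at least one genotype.

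The 27 accessory subunits of complex I had differences between -0.13 and 0.13 with active β-catenin and between -0.25 and 0.22 with FoxO1 deleted. The most positive with active β-catenin was Ndufb5, at 12.34, 12.80 and 12.64, against 12.33, 12.39, 12.67 and 12.48 in wild type. Its log2 difference was 0.13 ± 0.13 (SE, adjusted p = 0.781 in limma). The arrays of the genotypes overlapped. The most positive with FoxO1 deleted was Ndufa2, at 12.91, 12.70 and 12.99, against 12.38, 12.57, 12.82 and 12.81 in wild type. It differed by 0.22 ± 0.12 (adjusted p = 0.670 in limma), and FoxO1 deleted 2 lay below wild type 3 and 4.

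The 8 assembly factors of complex I, which build the enzyme without being part of it, had differences between -0.16 and 0.11 with active β-catenin and between -0.25 and 0.21 with FoxO1 deleted. Ndufaf3 was the only one whose arrays did not overlap. It stood at 9.26, 9.26 and 9.17 with FoxO1 deleted, against 8.98, 8.93, 9.08 and 9.08 in wild type. The log2 difference was 0.21 ± 0.09 (adjusted p = 0.636 in limma). With active β-catenin it stood at 9.13, 9.03 and 9.23 and overlapped wild type. Over all genes tested, 4.59% were higher without overlap with FoxO1 deleted.

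Ndufa4l2 was the most negative gene of the chain with active β-catenin. It is a paralogue of Ndufa4 and is known as a hypoxia-induced gene. Ndufa4 carries a complex I name but is known as a subunit of complex IV. Ndufa4l2 stood at 9.16, 9.02 and 8.89 with active β-catenin, at 9.03, 9.25 and 9.14 with FoxO1 deleted and at 9.42, 9.64, 9.95 and 9.32 in wild type. Every array of both altered genotypes lay below every wild-type array. The log2 difference was -0.56 ± 0.15 with active β-catenin (95% interval -0.88 to -0.24, adjusted p = 0.130 in limma). It was -0.44 ± 0.15 with FoxO1 deleted (adjusted p = 0.539 in limma), and both comparisons share the wild-type arrays. Ndufa4 stood at 12.44, 12.98 and 12.89 with active β-catenin, at 12.82, 12.50 and 12.45 with FoxO1 deleted and at 12.54, 12.64, 12.99 and 12.87 in wild type, and its arrays overlapped.

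Complex II, succinate dehydrogenase, has 4 subunits and is also an enzyme of the citric acid cycle. Sdha, which carries the flavin, stood at 11.97, 12.14 and 12.23 with active β-catenin, at 12.09, 11.98 and 12.10 with FoxO1 deleted and at 11.99, 11.95, 12.14 and 12.04 in wild type. It differed from wild type by 0.08 ± 0.08 with active β-catenin and by 0.03 ± 0.08 with FoxO1 deleted (adjusted p = 0.757 and 0.951 in limma). Sdhb, the iron-sulfur subunit, stood at 12.54, 12.17 and 12.34 with FoxO1 deleted, against 12.31, 12.34, 12.54 and 12.51 in wild type, a log2 difference of -0.08 ± 0.10 (adjusted p = 0.881 in limma). For both genes the arrays overlapped.

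The membrane anchors of complex II are Sdhc and Sdhd. Sdhc stood at 11.34, 11.22 and 11.33 with active β-catenin, at 11.58, 11.35 and 11.29 with FoxO1 deleted and at 11.42, 11.41, 11.48 and 11.37 in wild type. With active β-catenin all arrays lay below all wild-type arrays, at a log2 difference of -0.12 ± 0.08 (adjusted p = 0.612 in limma). Its second kept probe set had a difference of -0.30, with values of 9.99, 9.68 and 9.58 against 9.85, 10.20, 10.09 and 10.05 in wild type, and overlapped. Sdhd averaged 11.43 ± 0.03 with active β-catenin, 11.44 ± 0.13 with FoxO1 deleted and 11.50 ± 0.15 in wild type.

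Complex III, the cytochrome bc1 complex, had 8 genes in the fit. Its Rieske iron-sulfur subunit Uqcrfs1 was the most negative in both comparisons. It stood at 11.67, 12.20 and 11.93 with active β-catenin, at 12.17, 11.69 and 11.81 with FoxO1 deleted and at 11.91, 11.96, 12.30 and 12.28 in wild type. The log2 differences were -0.18 ± 0.15 and -0.22 ± 0.15 for active β-catenin and FoxO1 deleted (adjusted p = 0.715 and 0.742 in limma), and the arrays overlapped. Wild type 3 and 4 lay 0.36 above wild type 1 and 2 for this gene, more than either genotype difference. Uqcrb, a small subunit, was the most positive with active β-catenin at 14.27, 14.69 and 14.61, against 14.31, 14.36, 14.58 and 14.44 in wild type, a difference of 0.10 ± 0.11 (adjusted p = 0.799 in limma). Uqcrc1, a core protein, averaged 11.64 ± 0.39 with active β-catenin, 11.64 ± 0.12 with FoxO1 deleted and 11.65 ± 0.08 in wild type. With FoxO1 deleted no gene of complex III had a positive difference, and the 8 values ran from -0.22 to -0.0025. Negative differences were also found for 33 of 43 genes of complex I, 3 of 4 of II, 10 of 15 of IV and 16 of 17 of V. Over all genes 50% were negative, and the split of the chain turned without FoxO1 deleted 2, as given above.

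Complex V, the ATP synthase, had 17 genes in the fit, and all of them differed by less than 0.25 in both comparisons. Atp5a1 and Atp5b encode the α and β subunits of the catalytic head. Atp5a1 averaged 13.24 ± 0.15 with active β-catenin, 13.24 ± 0.13 with FoxO1 deleted and 13.25 ± 0.08 in wild type. Atp5b averaged 13.73 ± 0.06 with active β-catenin, 13.70 ± 0.19 with FoxO1 deleted and 13.78 ± 0.15 in wild type. The 3 genes Atp5g1, Atp5g2 and Atp5g3 encode the same mature ring subunit c, and their differences ran from -0.09 to 0.04 with active β-catenin and from -0.13 to -0.03 with FoxO1 deleted. Genotype means of these 5 genes differed by less than the spread of arrays within at least one of the genotypes compared.

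For the ring subunit, Atp5g1 stood at 11.52, 11.95 and 12.08 with active β-catenin, at 12.12, 11.59 and 11.71 with FoxO1 deleted and at 11.72, 11.88, 12.07 and 12.07 in wild type. Atp5g2 stood at 12.32, 12.67 and 12.53 with active β-catenin, at 12.52, 12.19 and 12.45 with FoxO1 deleted and at 12.39, 12.38, 12.60 and 12.49 in wild type. Atp5g3 stood at 14.11, 14.55 and 14.28 with active β-catenin, at 14.39, 14.11 and 14.39 with FoxO1 deleted and at 14.22, 14.26, 14.55 and 14.26 in wild type. All 3 genes overlapped between genotypes.

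The outermost genes of complex V were within the spread between arrays as well. Atp5d, of F1, the part with the catalytic head, stood at 13.11, 13.33 and 13.28 with active β-catenin, against 13.11, 13.11, 13.35 and 13.13 in wild type, a difference of 0.06 ± 0.09 (adjusted p = 0.852 in limma). Atp5md, a small membrane subunit, stood at 11.56, 11.44 and 12.00 with active β-catenin, against 11.24, 12.00, 11.66 and 12.31 in wild type, a difference of -0.14 ± 0.25 (adjusted p = 0.896 in limma). Atp5h, of the peripheral stalk, stood at 13.55, 13.27 and 13.45 with FoxO1 deleted, against 13.33, 13.36, 13.47 and 13.50 in wild type, a difference of 0.01 ± 0.09 (adjusted p = 0.988 in limma). Atp5mpl, a small membrane subunit, stood at 12.08, 11.87 and 11.98 with FoxO1 deleted, against 11.96, 11.93, 12.43 and 12.25 in wild type, a difference of -0.17 ± 0.14 (adjusted p = 0.784 in limma). In all 4 the genotypes overlapped.

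Complex IV, cytochrome c oxidase, had 15 genes in the fit and held the widest differences of the chain. Its 9 widely expressed subunits stayed between -0.12 and 0.09 with active β-catenin and between -0.12 and 0.02 with FoxO1 deleted. Cox4i1, the largest nuclear subunit, stood at 13.63, 13.85 and 13.68 with active β-catenin, at 13.67, 13.47 and 13.76 with FoxO1 deleted and at 13.56, 13.64, 13.80 and 13.69 in wild type. Cox5a averaged 13.39 ± 0.19 with active β-catenin, 13.39 ± 0.13 with FoxO1 deleted and 13.44 ± 0.06 in wild type. Cox6b1, the widely expressed form of subunit 6b, stood at 13.38, 13.88 and 13.80 with active β-catenin, at 13.75, 13.43 and 13.71 with FoxO1 deleted and at 13.55, 13.57, 13.75 and 13.70 in wild type. The genotypes overlapped for all 3 of these subunits. Cox7a2l, known as a factor of supercomplexes of III and IV, stood at 12.16, 12.17 and 12.28 with active β-catenin, at 11.85, 11.92 and 12.45 with FoxO1 deleted and at 12.12, 12.27, 12.14 and 12.19 in wild type. Cox8c, known from testis, stood at 8.75, 8.39 and 7.62 with active β-catenin, at 8.48, 8.21 and 7.76 with FoxO1 deleted and at 8.22, 8.49, 8.05 and 7.94 in wild type. Both genes overlapped between genotypes.

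The wide differences of complex IV belonged to the muscle isoforms Cox6a2, Cox7a1 and Cox8b and to Cox6b2. The promoters of isoforms and partners are shown because the muscle isoforms varied together between arrays while their partners did not vary as much. The sequences run from 250 bases before to 50 bases after the gene's start, 5′ to 3′ along the gene, and are from RefSeq on GRCm38.p6. Capitals mark matches on either strand to GCGC and TGCGC with 1 base between them, bound by NRF1, to CCGGAAG, bound by ETS factors such as GABP, to AAGATGGCG, bound by YY1, and to CANCTG, the E-box of muscle regulators. A match is a description of the letters, not a site.
Cox8b promoter, chr7:140900397-140900696, minus strand: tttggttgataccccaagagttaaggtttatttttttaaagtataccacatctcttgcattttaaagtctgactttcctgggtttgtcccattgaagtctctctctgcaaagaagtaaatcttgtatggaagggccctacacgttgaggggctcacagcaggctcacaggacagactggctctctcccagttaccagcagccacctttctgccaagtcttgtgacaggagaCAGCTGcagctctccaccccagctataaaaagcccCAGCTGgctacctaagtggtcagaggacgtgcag
Cox8a promoter, chr19:7217567-7217866, minus strand: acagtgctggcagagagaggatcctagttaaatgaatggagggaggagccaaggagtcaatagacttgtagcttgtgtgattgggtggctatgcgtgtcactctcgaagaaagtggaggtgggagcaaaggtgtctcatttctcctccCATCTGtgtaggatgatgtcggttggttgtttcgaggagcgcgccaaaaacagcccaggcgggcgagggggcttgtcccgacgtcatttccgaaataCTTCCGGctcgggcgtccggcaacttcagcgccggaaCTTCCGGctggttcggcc
Cox7a1 promoter, chr7:30183921-30184220, plus strand: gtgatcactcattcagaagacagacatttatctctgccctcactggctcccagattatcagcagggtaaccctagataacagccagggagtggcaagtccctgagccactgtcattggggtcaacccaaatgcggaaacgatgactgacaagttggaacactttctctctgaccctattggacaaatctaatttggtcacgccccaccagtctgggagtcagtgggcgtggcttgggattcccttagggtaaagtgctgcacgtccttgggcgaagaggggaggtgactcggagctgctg
Cox7a2 promoter, chr9:79759804-79760103, minus strand: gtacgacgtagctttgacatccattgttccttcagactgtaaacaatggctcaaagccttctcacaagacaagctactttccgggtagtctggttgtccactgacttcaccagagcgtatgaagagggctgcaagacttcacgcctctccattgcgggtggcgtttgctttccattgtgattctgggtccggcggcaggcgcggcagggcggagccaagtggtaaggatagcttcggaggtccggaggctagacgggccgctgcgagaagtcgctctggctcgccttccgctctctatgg
Cox6a1 promoter, chr5:115348909-115349208, minus strand: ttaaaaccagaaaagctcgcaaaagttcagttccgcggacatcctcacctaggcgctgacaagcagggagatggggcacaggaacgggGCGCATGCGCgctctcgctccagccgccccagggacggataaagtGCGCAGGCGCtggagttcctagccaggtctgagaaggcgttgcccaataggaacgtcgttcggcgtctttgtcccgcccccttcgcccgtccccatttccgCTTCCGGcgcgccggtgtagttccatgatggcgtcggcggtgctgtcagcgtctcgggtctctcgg
Cox6b2 promoter, chr7:4753045-4753344, minus strand: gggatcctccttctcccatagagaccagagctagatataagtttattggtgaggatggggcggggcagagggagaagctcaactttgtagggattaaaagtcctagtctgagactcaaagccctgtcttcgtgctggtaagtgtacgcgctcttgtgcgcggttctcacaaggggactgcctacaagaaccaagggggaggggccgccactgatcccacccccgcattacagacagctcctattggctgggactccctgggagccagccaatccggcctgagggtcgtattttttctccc
No promoter of Cox6a2 or Ndufa4l2 was matched.

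The muscle form Cox8b had 2 E-boxes, and its partner Cox8a had 1 E-box and 2 ETS matches. Cox6a1, the partner of Cox6a2, had 2 NRF1 matches and 1 ETS match. Cox7a1, Cox7a2 and Cox6b2 had none of the 4 motifs in this window. Over the chain, 74 of the 90 genes had a promoter in the table, 79 promoters in all. NRF1 matches were in 18 of the 79 (22.8%), where 4.60% of all 32851 promoters held one, and ETS matches in 19 (24.1%), where 8.86% did. YY1 matches were in 7 (8.86%), where 1.40% of all promoters held one. E-boxes were in 34 (43.0%), where 51.4% held one, and GC boxes (GGGCGG) in 36 (45.6%), where 35.7% did. NRF1, GABP and YY1 are known regulators of nuclear respiratory genes.

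Cox6a2, the heart and skeletal muscle form of subunit 6a, stood at 10.58, 11.70 and 11.35 with active β-catenin, at 11.88, 10.68 and 11.04 with FoxO1 deleted and at 10.17, 10.30, 11.50 and 11.44 in wild type. In each genotype it spread over more than 1 unit on the log2 scale, and the genotypes overlapped. Against wild type it differed by 0.36 ± 0.40 with active β-catenin and by 0.35 ± 0.40 with FoxO1 deleted (adjusted p = 0.798 and 0.853 in limma). Single arrays moved both values, to 0.11 without active β-catenin 2 and 0.67 without active β-catenin 1, and to 0.01 without FoxO1 deleted 1 and 0.61 without FoxO1 deleted 2. Its second probe set had differences of 0.46 and 0.54. The widely expressed Cox6a1 stood at 14.40, 14.59 and 14.54 with active β-catenin, at 14.53, 14.45 and 14.70 with FoxO1 deleted and at 14.52, 14.52, 14.59 and 14.52 in wild type.

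Cox8b, the muscle form of subunit 8, stood at 10.53, 11.76 and 11.23 with active β-catenin, at 11.74, 10.16 and 10.79 with FoxO1 deleted and at 9.94, 9.82, 11.12 and 11.01 in wild type. It differed by 0.70 ± 0.43 with active β-catenin and by 0.42 ± 0.43 with FoxO1 deleted (adjusted p = 0.572 and 0.835 in limma), and the genotypes overlapped. The first value was 0.41 without active β-catenin 2 and 1.02 without active β-catenin 1, and the second 0.0025 without FoxO1 deleted 1 and 0.79 without FoxO1 deleted 2. Cox8a, the widely expressed form, stood at 12.14, 12.19 and 12.22 with active β-catenin, at 12.22, 12.06 and 12.35 with FoxO1 deleted and at 12.17, 12.30, 12.41 and 12.34 in wild type. Its values spanned less than 0.4 over the 10 arrays.

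Cox7a1, the muscle form of subunit 7a, stood at 8.93, 9.96 and 9.48 with active β-catenin, at 9.54, 8.49 and 8.87 with FoxO1 deleted and at 8.31, 8.31, 9.16 and 9.18 in wild type. Active β-catenin 1 lay below wild type 3 and 4, and the other two arrays lay above every wild-type array. The difference with active β-catenin was 0.72 ± 0.32, or 1.64-fold (95% interval 0.01 to 1.42, adjusted p = 0.402 in limma), and 0.47 without active β-catenin 2. With FoxO1 deleted it was 0.23 ± 0.32 (adjusted p = 0.884 in limma), with -0.06 without FoxO1 deleted 1 and 0.47 without FoxO1 deleted 2. Cox7a2, the widely expressed form, stood at 13.56, 14.07 and 13.91 with active β-catenin, at 13.93, 13.60 and 13.88 with FoxO1 deleted and at 13.75, 13.78, 13.92 and 13.85 in wild type.

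**Figure D2:**
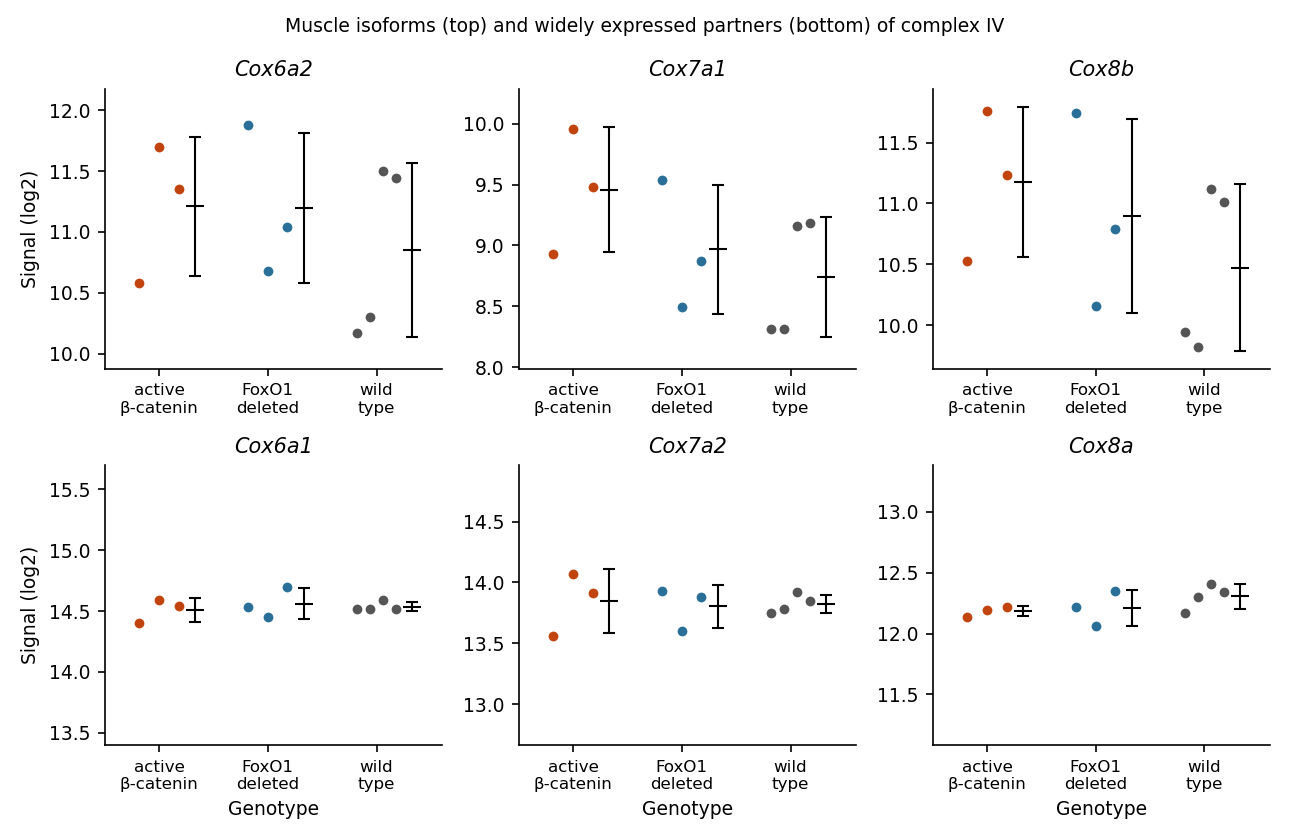
Log2 signal of the muscle isoforms Cox6a2, Cox7a1 and Cox8b (top) and of their widely expressed partners Cox6a1, Cox7a2 and Cox8a (bottom) in each array, by genotype, with the mean and SD beside the points. Every panel spans the same range of log2 units, and the muscle isoforms spread within each genotype, with wild type 3 and 4 above wild type 1 and 2.

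The muscle isoforms were high in the same arrays as markers of skeletal muscle. The median deviation of the 3 isoforms from their mean over the 10 arrays was -0.28, 0.94 and 0.42 with active β-catenin, 0.82, -0.53 and -0.02 in FoxO1 deleted samples and -0.87, -0.76, 0.31 and 0.20 in wild type. The 18 skeletal muscle markers had medians of -0.46, 0.72 and 0.22 with active β-catenin, 0.63, -0.46 and 0.05 in FoxO1 deleted samples and -0.71, -0.76, 0.48 and 0.41 in wild type. Their summed signal ran from 16.76 to 17.82 on the log2 scale with active β-catenin, from 16.83 to 17.74 with FoxO1 deleted and from 16.57 to 17.65 in wild type. All 18 of 18 markers lay above the table's median of 7.15 in every array, and the lowest single value was 7.17, for Mb (myoglobin) in a wild-type array. In bulk RNA, fewer cells of a type and less RNA per cell cannot be told apart. The part of muscle RNA in the isoform values was not tested.

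The chain as a whole varied between arrays by less. By its median the same 4 arrays stood lowest, active β-catenin 1, FoxO1 deleted 2 and wild type 1 and 2. By the mean over the 87 genes FoxO1 deleted 3, at -0.055, lay below wild type 2, at -0.052. The median deviation of the 87 genes was -0.19, 0.17 and 0.07 with active β-catenin, 0.11, -0.16 and -0.04 in FoxO1 deleted samples and -0.08, -0.05, 0.12 and 0.08 in wild type. Its range over the 10 arrays was 0.35 and its pooled SD within a genotype 0.138, beside the genotype medians of -0.01 and -0.04 given above. Above their own 10-array mean were 5, 74 and 69 of the 87 genes in the arrays with active β-catenin, 79, 9 and 37 in those with FoxO1 deleted and 9, 26, 79 and 68 in wild type. Arrays with high and with low chain levels thus occurred in every genotype.

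Other mitochondrial genes followed this order only in part. The 16 measured citric acid cycle genes had median deviations of -0.17, 0.20 and 0.09 with active β-catenin, 0.14, -0.17 and -0.09 in FoxO1 deleted samples and -0.09, -0.07, 0.13 and 0.05 in wild type. The 34 assembly factors outside the rule stayed between -0.08 and 0.05 in all arrays, and 16 genes of mitochondrial biogenesis between -0.04 and 0.10. Osteoblast markers had 0.15, -0.01 and -0.04 with active β-catenin, -0.02, 0.03 and 0.14 in FoxO1 deleted samples and -0.02, 0.02, -0.14 and -0.17 in wild type. The 3′ minus 5′ signal of Gapdh, a measure of RNA integrity, was 0.31, 0.02 and 0.18 with active β-catenin, 0.18, 0.33 and 0.24 in FoxO1 deleted samples and 0.22, 0.21, 0.00 and 0.01 in wild type. The lowest values of this measure lay in arrays with high chain levels. The parts of muscle RNA, osteoclast RNA and RNA integrity in the chain levels were not tested.

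**Figure D3:**
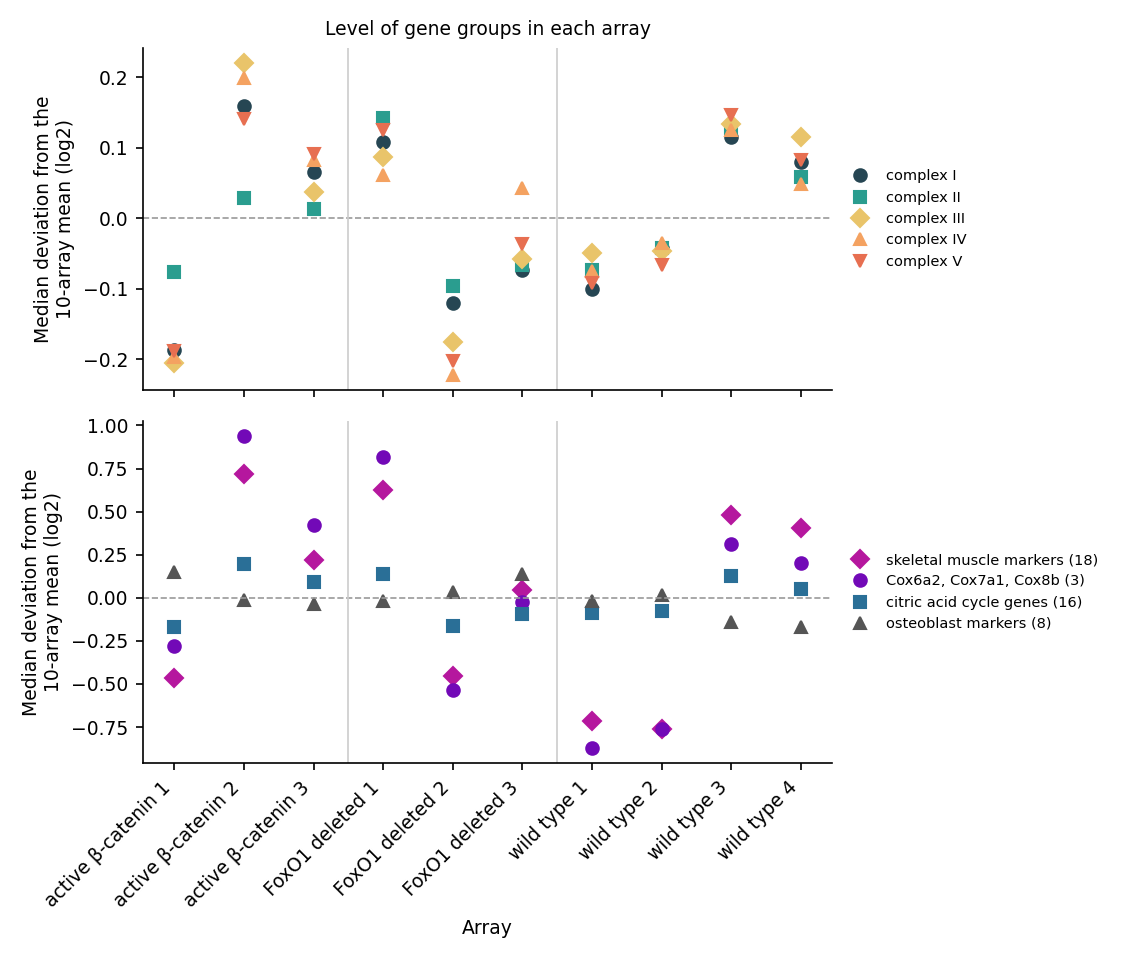
Median deviation from the 10-array mean (log2) in each array, for complexes I to V (top) and for skeletal muscle markers, muscle isoforms of complex IV, citric acid cycle genes and osteoblast markers (bottom). Active β-catenin 1, FoxO1 deleted 2 and wild type 1 and 2 lie low for the complexes, the citric acid cycle genes and the muscle genes, and the bottom panel has a wider axis. FoxO1 deleted 3 lies below wild type 2 for complexes I, II and III and the citric acid cycle genes. For the skeletal muscle markers FoxO1 deleted 3 lies at 0.05.

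Within wild type the chain split with the pairs of similar arrays. Wild type 3 and 4 both lay above wild type 1 and 2 for 69 of 87 genes (79.3%), where 22.8% of all genes tested did. By complex these were 35 of 43 genes in I, 3 of 4 in II, 7 of 8 in III, 10 of 15 in IV and 14 of 17 in V. The median difference between the pairs was 0.16 over the 87 genes, 0.14 over the 9 widely expressed complex IV subunits and 1.19 over the 3 muscle isoforms. All 18 skeletal muscle markers split the same way, with a median of 1.23. Xist, the RNA that coats the silenced X, stood at 14.25 and 14.05 for wild type 3 and 4, while the first pair held 8.96 and 7.29. It was at 14.22 and 14.43 in FoxO1 deleted 2 and 3, where the chain lay below its mean, and at 7.88 in FoxO1 deleted 1. With active β-catenin it was at 7.06, 5.91 and 6.56, so no array of that genotype reached the high values. Xist level was thus not balanced between the genotypes. The split within wild type is a description of 4 arrays, with no test.

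Cox6b2, a form of subunit 6b known from testis, was the most negative gene of complex IV in both comparisons. It stood at 7.79, 7.96 and 8.13 with active β-catenin, at 8.11, 7.77 and 7.99 with FoxO1 deleted and at 8.40, 8.42, 8.33 and 8.61 in wild type. All arrays of both altered genotypes lay below all wild-type arrays. The log2 difference was -0.48 ± 0.14 with active β-catenin (95% interval -0.79 to -0.17, adjusted p = 0.167 in limma). With FoxO1 deleted it was -0.48 ± 0.14 (adjusted p = 0.486 in limma). The widely expressed Cox6b1 showed no such separation.

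Cox6b2 and Ndufa4l2 were thus the 2 of 87 genes (2.30%) that lay below wild type without overlap in both genotypes, where 1.48% of all genes tested did. The comparisons share the 4 wild-type arrays. With active β-catenin 3 of 87 genes did not overlap (3.45%), Cox6b2, Ndufa4l2 and Sdhc, where 14% of all genes did not. With FoxO1 deleted there were also 3 (3.45%), Cox6b2, Ndufa4l2 and Ndufaf3, where 9.03% did not. In each single comparison the share for the chain lay below that for all genes. The 3′ minus 5′ signal of Actb also separated wild type, at 0.85 to 0.88 with active β-catenin, 0.80 to 0.99 with FoxO1 deleted and 0.60 to 0.77 in wild type. The summed signal of the 6 erythroid markers in the fit, of 9 listed, ran from 9.62 to 10.30 with active β-catenin, from 9.52 to 11.18 with FoxO1 deleted and from 10.74 to 12.24 in wild type. The erythroid sums separated with active β-catenin and overlapped with FoxO1 deleted.

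The summed signal of cartilage cell markers separated wild type from both genotypes. All 10 of 10 listed chondrocyte markers were in the fit, none near 0, with the lowest single value at 7.35 for Sox9. Their summed signal ran from 14.66 to 15.00 with active β-catenin, from 14.61 to 15.91 with FoxO1 deleted and from 14.03 to 14.54 in wild type. The median log2 difference of the 10 was 0.71 for active β-catenin minus wild type and 1.09 for FoxO1 deleted minus wild type. Of the 10 markers 0 passed limma's test in either comparison. An unadjusted p under 0.05 was found for 4 with active β-catenin, where 12.1% of all genes had one. In FoxO1 deleted samples it was found for 9, where 7.83% of all genes had one. Taken singly, 4 of 10 did not overlap with active β-catenin, where 14% of all genes did not. With FoxO1 deleted 7 of 10 did not, where 9.03% of all genes did not. The 7 endothelial markers and the 4 adipocyte markers in the fit, of 9 listed, lay above wild type in summed signal with active β-catenin only. Of 7 listed brown adipocyte markers only 2, Dio2 and Prdm16, were in the fit, and their sum lay above wild type with FoxO1 deleted only. Ucp1, Cidea, Cpt1b, Elovl3 and Otop1 had no probe set in the fit. The parts of RNA integrity and of RNA from these cell types in the values of Cox6b2 and Ndufa4l2 were not tested.

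**Figure D4:**
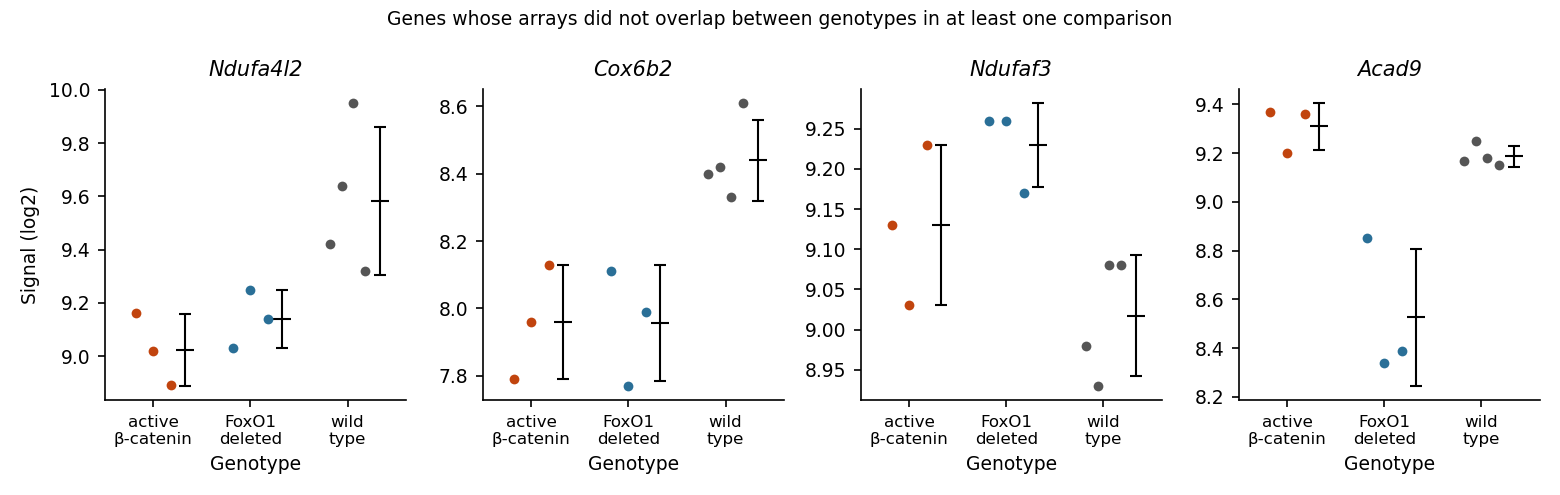
Log2 signal of Ndufa4l2, Cox6b2, Ndufaf3 and Acad9 in each array by genotype, with the mean and SD beside the points, on axes of their own. Ndufa4l2 and Cox6b2 lie below wild type in all arrays of both altered genotypes, Ndufaf3 lies above it with FoxO1 deleted, and Acad9, an assembly factor outside the rule, lies below it with FoxO1 deleted.

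A gene's probe sets did not always give the same sign. Of the kept probe sets, 69 belonged to 45 genes that were represented by another one. Their differences ran from -0.44 to 0.46 with active β-catenin, with 30 opposite in sign to the one used, and from -0.49 to 0.54 with FoxO1 deleted, with 26 opposite. With every kept probe set as a test of its own, 0 of 156 passed in either comparison in limma, and the smallest adjusted p was 0.140 with active β-catenin and 0.483 in FoxO1 deleted samples. The 8 probe sets that list several genes had differences between -0.33 and 0.02 with active β-catenin and between -0.30 and -0.06 with FoxO1 deleted. Around the filter, a probe set of Ndufa12 at 7.17 (the third-highest of its 10 values) was just kept and 1 of Ndufb2 at 7.11 was just left out, and both genes were represented by other probe sets.

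The third comparison set the altered genotypes against each other, without wild-type arrays in the contrast. Of 87 genes 0 passed limma's test, where 0.669% of all genes tested did, and the smallest adjusted p was 0.797. At an unadjusted p under 0.05 there were also 0, where 8.03% of all genes had one. For 0 of the 87 genes did the arrays separate, where 9.54% of all genes did. The median difference of active β-catenin minus FoxO1 deleted was 0.04, with 58 genes positive and 27 negative, where 49.2% of all genes were negative. The split was 31 positive and 56 negative without FoxO1 deleted 2.

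Further mitochondrial lists were read beside the chain. Of 7 other electron carriers and donors, among them Cyc1 of complex III and Cycs, cytochrome c, 0 passed against wild type in limma at either genotype. Cycs stood at 13.05, 13.55 and 13.60 with active β-catenin, at 13.44, 13.23 and 12.95 with FoxO1 deleted and at 13.16, 13.20, 13.38 and 13.46 in wild type. Of 16 citric acid cycle genes and 16 biogenesis genes 0 passed either comparison, with medians of 0.04 (cycle) and 0.03 (biogenesis) with active β-catenin, and of -0.04 (cycle) and 0.01 (biogenesis) in FoxO1 deleted samples. Of the genes encoded in mitochondrial DNA only ND5, a complex I subunit, was in the fit. It stood at 14.45, 14.42 and 14.25 with active β-catenin, at 14.37, 14.17 and 14.27 with FoxO1 deleted and at 14.24, 14.25, 14.23 and 14.20 in wild type.

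Among 11 genes of exchange across the inner membrane 0 passed against wild type, and 3 of 11 did not overlap with active β-catenin (27.3%), Atpif1, Slc25a20 and Slc25a5, where 14% of all genes did not. With FoxO1 deleted 2 of 11 did not overlap (18.2%), Slc25a20 and Slc25a5, where 9.03% of all genes did not. Atpif1, the inhibitor of the ATP synthase, stood at 11.93, 11.88 and 12.02 with active β-catenin, at 12.05, 12.20 and 11.95 with FoxO1 deleted and at 12.29, 12.37, 12.17 and 12.29 in wild type. It differed by -0.34 ± 0.08 with active β-catenin (adjusted p = 0.0909 in limma), and its second kept probe set by 0.01. Slc25a20, the carnitine carrier that brings in fatty acids, stood at 10.79, 11.00 and 11.00 with active β-catenin, at 10.95, 10.72 and 10.71 with FoxO1 deleted and at 10.63, 10.69, 10.46 and 10.50 in wild type. It differed by 0.36 ± 0.10 with active β-catenin (adjusted p = 0.135 in limma), and its second kept probe set by -0.12. Both altered genotypes lay above wild type without overlap for Slc25a20.

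The 34 assembly factors outside the rule included the only gene of these lists to pass a test. Acad9, an acyl-CoA dehydrogenase known as an assembly factor of complex I, was higher with active β-catenin than with FoxO1 deleted. It stood at 9.37, 9.20 and 9.36 with active β-catenin, at 8.85, 8.34 and 8.39 with FoxO1 deleted and at 9.17, 9.25, 9.18 and 9.15 in wild type. The difference of active β-catenin minus FoxO1 deleted was 0.78 ± 0.14 (adjusted p = 0.0251 in limma). It was 1 of 34 factors to pass here, where 0.669% of all genes did. With FoxO1 deleted all arrays lay below wild type, by -0.66 ± 0.13 (adjusted p = 0.340 in limma), and with active β-catenin the difference from wild type was 0.12 ± 0.13. A second kept probe set of Acad9 differed by -0.33, in the opposite direction, at 8.44, 8.29 and 8.47 with active β-catenin, 8.83, 8.64 and 8.71 in FoxO1 deleted samples and 8.40, 8.43, 8.40 and 8.56 in wild type. The call held in 9 of 24 other settings, whose adjusted p ran from 0.00971 to 0.639, and it was lost on leaving out any 1 array except FoxO1 deleted 1.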

How the data were processed

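Total RNA was extracted with Trizol and labelled as biotinylated cRNA, per the labels' protocols. The deposited values are log2 signal from MAS5, which the submitters' processing notes name without a version. That the scale is log2 follows from the values, since the linear signal trimmed by 2% averaged about 500 in every array.

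Gene names came from the annotation of the platform. Probe sets listing 1 gene entered when at least 3 of their 10 values exceeded 7.15, the median of the whole table, and of several such probe sets the one with the highest mean stood for the gene. Levels of different probe sets were not compared. limma 3.58.1 in R 4.3.3 fitted 1 mean per genotype to all 10 arrays (7 residual degrees of freedom, eBayes with trend, two-sided, Benjamini-Hochberg over 11357 genes, threshold 0.05). The fit was tested on simulated data with changes of known size. For active β-catenin against wild type it recovered 1.8% of changes of 0.25, 34.8% of 0.5 and 75.2% of 1 on the log2 scale. For FoxO1 deleted against wild type these were 2.4%, 31% and 76.2%. The simulation drew independent normal noise for each gene and changed enough genes that many passed in each run. With FoxO1 deleted only 3 of 11357 genes passed in the data, so the adjusted threshold was stricter there than in the simulation. The simulated shares can therefore overstate what that comparison would recover. Most changes of 0.5 or less would thus be missed. Differences are ± SE and means ± SD.

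The members, the gene lists, the tests and the 24 alternatives were chosen with earlier results of these data known. Values per array are given for genes that pass, the most positive and negative gene of each complex, genes without overlap and isoform families, and means for core subunits. From each further list up to 3 genes were named, and Cycs and ND5 were chosen after their values were seen. The number of arrays limits the precision.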

Additional observations from a re-analysis of the deposited data

Results flagged for a closer look

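In 3 of 36 respiratory chain genes named here, 1 wild-type array stood apart from the other 3 by Dixon's criterion, and chance gives about 1 in 20 such groups. In each, wild type 3 was the high array, at 13.35 for Atp5d, against 13.11 to 13.13 in the others. Atp5g3 was at 14.55 there, against 14.22 to 14.26. Cox6a1 was at 14.59, against 14.52 in each of the others.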

How the results depend on the processing

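The counts of 0 respiratory chain genes past the test in the 3 comparisons held in all 24 alternatives (2 other filters, 2 scalings, 2 ways to represent a gene, 16 added on the linear scale, only the genotypes compared, the replicate block, 2 variance priors, array weights, similar wild-type arrays averaged, Xist signal as a covariate and each array left out). The smallest adjusted p in limma ran from 0.0911 to 0.361 with active β-catenin and from 0.202 to 0.999 with FoxO1 deleted. The median of the chain ran from -0.08 to 0.09 with active β-catenin and from -0.10 to 0.04 with FoxO1 deleted, each within the spread of arrays within a genotype (SD 0.138). It was 0.09 without active β-catenin 1 and -0.08 without active β-catenin 2. With FoxO1 deleted it was -0.10 without FoxO1 deleted 1, 0.02 without FoxO1 deleted 2 and 0.04 with array weights.

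Calls among the other lists moved more. With active β-catenin against wild type they were 1 with the mean of the kept probe sets or with array weights (Sox9), 2 with only the genotypes compared (Hemgn and Rhag) and 0 to 1 when an array was left out. With FoxO1 deleted they were 5 with array weights (Col2a1, Col9a1, Col9a3, Comp and Ucma). Calls over all 11357 genes rose as well, from 3 in the main fit to 29 with array weights for FoxO1 deleted. For active β-catenin the main fit called 89 of all genes. That count was 101 with the mean of the kept probe sets, 149 with array weights and 141 with only the genotypes compared. Between the altered genotypes the 1 call, Acad9, became 0 with the mean of the kept probe sets, only the genotypes compared, array weights, similar wild-type arrays averaged or Xist signal as a covariate, and ran from 0 to 1 when an array was left out. The cause was not tested. Deviations of arrays with the same replicate number correlated at -0.29 to 0.29. With so few arrays in a genotype, these values cannot tell whether the numbers pair the samples. With the replicate block the Acad9 call was 0, the chain counts stayed 0, and Atp5md turned to 0.033 with active β-catenin. Leaving out 1 array took Atp5md from -0.323 (without wild type 1) to 0.033 (without wild type 4).

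With FoxO1 deleted some small differences turned sign. Atp5h was -0.068 and Sdha -0.019 with the mean of the kept probe sets, and Sdhb was 0.037 with array weights. Without single arrays, Atp5h ran from -0.055 to 0.085, Cox7a1 from -0.06 to 0.465 and Sdhb from -0.17 to 0.015, with the turned value of Cox7a1 without FoxO1 deleted 1 and of Sdhb without FoxO1 deleted 2.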
